A study of Mus musculus with 20 samples.

Results

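The retinoid visual cycle was described through 10 genes, taken by symbol from the 24411 genes of the deposited table: Rpe65, Lrat, Rlbp1, Rdh5, Rgr, Rrh, Rdh10, Rdh11, Rdh8 and Rdh12. All 10 were in the table, and all 10 were among the 18807 genes that were tested. Light turns the 11-cis-retinal of visual pigments into all-trans-retinal, which photoreceptor dehydrogenases reduce to all-trans-retinol. The retinal pigment epithelium (RPE) takes up this retinol, stores it as esters, isomerizes it and oxidizes it back to 11-cis-retinal. The contrast of interest was between the genes that act in the RPE and the dehydrogenases that act in photoreceptors.

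RNA of the RPE and choroid was sequenced from C57BL/6 mice in 4 groups of 5 libraries. WT mice and mice with the Stra6-/- genotype, which lack the retinol transporter of the RPE throughout the body, were raised on chow and kept after weaning for 12 weeks on a vitamin A sufficient (VAS, 4 IU/g) or vitamin A deficient (VAD, 0 IU/g) diet. By the methods of the study the WT mice came from a supplier and the Stra6-/- mice from the local animal house, the anterior segment was removed, the neural retina was peeled off after dispase, and both eyecups of 1 mouse made 1 library. Photoreceptor and corneal transcripts were nonetheless read in all 20 libraries. Age at death was not given in the sources used here.

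The values are gene counts divided by 1 size factor per library, called normalized values here. The 4 groups entered 1 limma fit of log2(value + 1), and p was adjusted over the 18807 genes by Benjamini-Hochberg. Differences are log2 fold changes with their standard error (SE). A gene was called at an adjusted p under 0.05, and "higher" and "lower" refer to called genes unless values alone are given. The added 1 shrinks log2 differences between low values. For Rdh8 a mean of log2 values can also differ in direction from plain means. In VAD WT against VAS WT the fit gave -1.45, while the plain means were 96.4 and 60.5.

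Several libraries stood apart or, by normalized values, went against their labels. The targeted gene Stra6 had normalized values of 2414 to 2742 in VAS WT, 564 to 694 in VAS Stra6-/-, 669 to 1529 in VAD WT and 1973 to 2393 in the libraries labelled VAD Stra6-/-. The last group lay above VAD WT by 1.23 in log2 units (SE 0.18, adjusted p = 3.9e-06, limma), which on this scale goes against its label. Stra6 rose by less than the mean log2 value of the other RPE markers listed below, which was 2.63 higher there than in VAD WT. That mean was 1.92 higher there than in VAS Stra6-/-, while the mean normalized value of Stra6 was 2163 against 629. Whether the label holds was not tested, and those 5 are called "the libraries labelled VAD Stra6-/-". Transcripts that mark females (Xist) and males (Ddx3y) also differed between the groups. Xist was 7.69 to 38.4 in VAS WT and 15320 to 18052 in VAS Stra6-/-, and Ddx3y was 981 to 1193 and 0 to 1.02. Each library labelled VAD Stra6-/- held both, Xist at 3570 to 4280 and Ddx3y at 741 to 970.0, which goes against 1 mouse per library as the methods describe, so that what the 5 libraries are replicates of is not known. In VAD WT, replicates 2 and 4 had Xist at 10912 to 11767 and Ddx3y at 75.2 to 80.5, against 174 to 234 and 1041 to 1133 in replicates 1, 3 and 5. Total reads per library ranged from 13331903 to 21878614.

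Marker lists of other cell types differed between the same libraries. The summed normalized value of 13 cornea and surface epithelium markers, led by the corneal keratin Krt12, was 714402 to 850920 in VAS WT and 960863 to 996880 in VAS Stra6-/-, but 28669 to 37935 in those labelled VAD Stra6-/-. The VAD WT sum was 1204276 to 1239064 in replicates 1, 3 and 5 and 439923 to 443983 in replicates 2 and 4. The 18 rod markers summed to 170814 to 195966 in VAS WT, 190871 to 203476 in VAS Stra6-/- and 110415 to 125977 in those labelled VAD Stra6-/-. In VAD WT they summed to 149248 to 153721 in replicates 1, 3 and 5 and to 376076 to 376166 in replicates 2 and 4. The 12 other RPE markers, which include none of the 10 genes, summed to 33771 to 37025, 36734 to 38487 and 166170 to 172439 in the same 3 groups. In VAD WT they summed to 14860 to 15327 in replicates 1, 3 and 5 and to 40802 to 41225 in replicates 2 and 4. Best1, a chloride channel used as an RPE marker, stood at 7.09 to 44.6 in all 20 libraries, whereas the keratin Krt18, another of the 12, ranged from 1349 to 14559. In bulk tissue a change in the number of cells of a type and a change of RNA per cell cannot be told apart. The part of these lists in the results below was tested only as far as the ratios to the RPE and rod markers go.

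**Figure D1:**
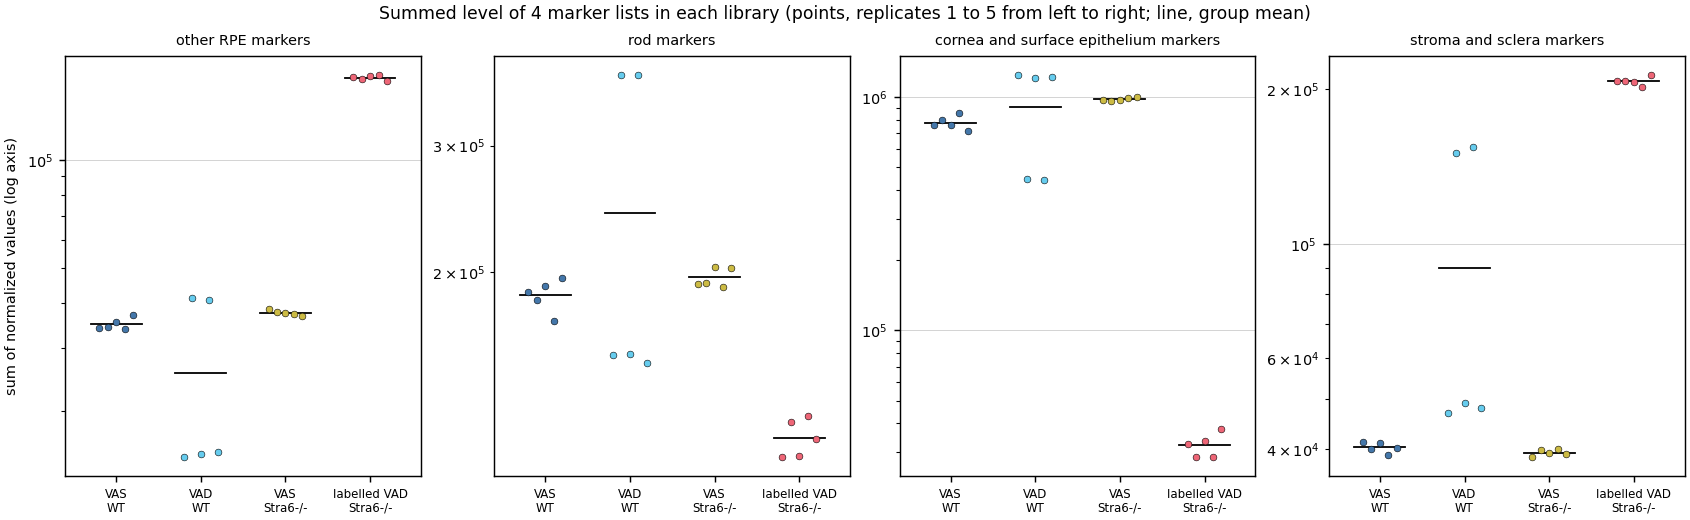
Summed normalized value (log axis) of 4 marker lists in each library, with replicates 1 to 5 of each group from left to right and the group mean as a line. Cornea markers are at 28669 to 37935 in the libraries labelled VAD Stra6-/- and at 439923 or more elsewhere, other RPE markers are highest in the libraries labelled VAD Stra6-/-, and replicates 2 and 4 of VAD WT lie apart from replicates 1, 3 and 5 in every panel.

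Positions are those of GENCODE vM21 on GRCm38, the build the study aligned to, and all 10 genes are protein coding. Of the RPE genes, Rpe65, the retinoid isomerase, spans 159599175 to 159625321 of chromosome 3 on the + strand. Lrat, which makes the retinyl esters that RPE65 uses, spans 82892579 to 82903973 of chromosome 3 on the - strand. Rlbp1, whose product CRALBP binds 11-cis-retinoids, spans 79374870 to 79387048 of chromosome 7 on the - strand. Rdh5, the 11-cis-retinol dehydrogenase of the RPE, spans 128913593 to 128922888 of chromosome 10 on the - strand. Rgr, an opsin of RPE and Müller glia that isomerizes retinal in light, spans 37034909 to 37048964 of chromosome 14 on the - strand. Rrh, which encodes the RPE opsin peropsin, spans 129804408 to 129822587 of chromosome 3 on the - strand. The 2 dehydrogenases used in RPE and in other cells are Rdh10, which oxidizes retinol to retinal, at 16105774 to 16133734 of chromosome 1 on the + strand, and Rdh11, at 79174337 to 79192293 of chromosome 12 on the - strand. The 2 photoreceptor dehydrogenases are Rdh8, of the outer segments, at 20818503 to 20826117 of chromosome 9 on the + strand, and Rdh12, of the inner segments, at 79208914 to 79222665 of chromosome 12 on the + strand. Rdh11 and Rdh12 are neighbours on opposite strands. Rdh5 shares 257 of its 1258 exon bases with Bloc1s1 on the same strand, so its counts are uncertain to that extent. Bloc1s1, which encodes a subunit of a lysosome-related complex, had normalized values of 841 to 1724 over the 20 libraries.

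The promoters of the RPE genes Rpe65 and Rgr are set beside that of Rdh12. In the libraries labelled VAD Stra6-/- Rpe65 and Rgr were higher and Rdh12 was lower. Sequences are from RefSeq on GRCm38.p6 and run 5′ to 3′ on the strand of the gene over the 250 bases before the RefSeq start. Capitals mark the core GGATTA, bound by OTX and CRX factors, on either strand, and the E box CATGTG, bound by MITF, which lies on the opposite strand here and so reads CACATG.
Rpe65 (chr3:159598931-159599180, + strand): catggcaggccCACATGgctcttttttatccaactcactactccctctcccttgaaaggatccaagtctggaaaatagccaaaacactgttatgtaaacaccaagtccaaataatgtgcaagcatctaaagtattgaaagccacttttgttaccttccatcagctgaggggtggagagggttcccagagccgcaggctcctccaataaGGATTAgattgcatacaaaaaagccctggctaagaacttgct
Rgr (chr14:37049015-37049264, - strand): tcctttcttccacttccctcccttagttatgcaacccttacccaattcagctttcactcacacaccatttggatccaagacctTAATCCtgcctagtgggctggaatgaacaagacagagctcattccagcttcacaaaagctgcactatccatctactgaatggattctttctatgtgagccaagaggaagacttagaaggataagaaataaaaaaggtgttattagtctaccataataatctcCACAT
Rdh12 (chr12:79208663-79208912, + strand): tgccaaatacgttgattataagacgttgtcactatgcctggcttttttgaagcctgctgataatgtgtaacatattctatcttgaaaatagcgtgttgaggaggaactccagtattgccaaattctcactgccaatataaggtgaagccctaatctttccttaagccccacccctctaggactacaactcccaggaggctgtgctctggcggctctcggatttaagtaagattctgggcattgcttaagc
The Rpe65 promoter held GGATTA with its first base at -42 from the start and CACATG at -239. That of Rgr held TAATCC at -167 and CACATG at -5, which crosses the start, so that its last base is not printed. The Rdh12 window of 250 bases before to 50 after the start held none of these motifs, nor the E box CACGTG, on either strand. Of the 9 genes with an entry, 2 held GGATTA (Rpe65 and Rgr), 3 held CATGTG (Rpe65, Rgr and Rlbp1, the last as CACATG at -124) and 1 held CACGTG (an alternative start of Rdh11, at -230 and -182). Lrat, Rdh5 and Rrh, which were higher together with Rpe65 and Rgr, held none of the 3 motifs, and neither did Rdh8. Genes that were higher in the libraries labelled VAD Stra6-/- thus included some with a motif and some without. Rdh12, which was lower there, held none. Whether a motif bears on the direction of change was not tested. Among 27025 genes, 8.14% held GGATTA, 15.9% CATGTG and 8.09% CACGTG on either strand of a promoter of this length (7.06%, 14.2% and 7.15% of all 32851 promoters). The 3 motifs do not overlap one another in these windows. Rdh10 was not searched. A match is a description of these letters and no measurement of binding.

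Levels were compared between genes per kb of exon. In VAS WT the order was Rdh5 (8003 ± 503 per kb, SD, n = 5), Rgr (6296 ± 383), Rlbp1 (4716 ± 381), Rpe65 (2243 ± 145), Rdh12 (694 ± 38.0), Rdh10 (372 ± 29.97), Lrat (335 ± 24.9), Rrh (329 ± 48.2), Rdh11 (103 ± 5.07) and Rdh8 (43.1 ± 16.4). Neighbours in this order did not overlap in any library except that Rdh10 overlapped Lrat and Lrat overlapped Rrh. Rdh12 was thus the more abundant photoreceptor dehydrogenase per kb, and Rdh8 was the lowest of the 10 genes by mean in every group. In VAS Stra6-/- Rgr and Rdh5 led with overlapping levels of 6163 ± 146 and 5930 ± 233 per kb. In VAD WT Rlbp1, Rdh5, Rgr, Rpe65 and Rdh12 overlapped one after the other, at 2664 ± 1357, 2361 ± 290.1, 2012 ± 647, 1289 ± 753 and 638 ± 125 per kb. In the libraries labelled VAD Stra6-/- Rgr led at 33817 ± 1258 per kb, followed by Rlbp1, Rpe65 and Rdh5 at 24388 ± 822, 23799 ± 630 and 22524 ± 1755, and Rdh12 had moved from the fifth place in VAS WT to the eighth, at 317 ± 15.6.

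Among the enzymes that esterify and isomerize retinol, Rpe65 was low in VAD WT and many times higher in the libraries labelled VAD Stra6-/-. Its normalized values in replicates 1 to 5 of VAS WT were 4076, 3907, 4288, 4024 and 4595. Those of VAD WT were 1503, 3908, 1545, 3945 and 1107, with replicates 2 and 4 near VAS WT. VAS Stra6-/- had 5892, 5864, 5784, 5598 and 5980, all above VAS WT. The libraries labelled VAD Stra6-/- had 45030, 44619, 42395, 44227 and 45414, none near those of another group. Lrat, the esterifying enzyme, followed the same order. Its values were 1830, 1612, 1804, 1735 and 1975 in VAS WT. They were 263, 821, 414, 941 and 317 in VAD WT. They were 2774, 2550, 2481, 2514 and 2484 in VAS Stra6-/-. All 5 values of VAD WT lay below VAS WT and all 5 of VAS Stra6-/- above it. In the libraries labelled VAD Stra6-/- Lrat stood at 19902, 19917, 19838, 20082 and 18109.

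The 11-cis-retinol dehydrogenase Rdh5 differed from this order on the VAS diet. It was 10542, 10261, 10361, 8958 and 10216 in VAS WT and 7661, 7275, 7174, 7870 and 7323 in VAS Stra6-/-, so that here the knockout was the lower group without overlap. VAD WT had 2646, 3354, 2761, 3382 and 2711, and replicates 2 and 4 were only 1.24 times the other replicates. The libraries labelled VAD Stra6-/- had 28132, 26537, 28792, 26386 and 31829. The 11-cis-retinoid carrier gene Rlbp1 ranged from 9656 to 11809 in VAS WT and from 9200 to 10436 in VAS Stra6-/-, which overlapped. In VAD WT Rlbp1 was 3597 to 3954 in replicates 1, 3 and 5 and 9167 to 9287 in replicates 2 and 4, and in the libraries labelled VAD Stra6-/- it was 52216 to 56495.

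Rgr, the most abundant of the 10 genes by normalized value, stood at 29693, 28307, 30999, 27735 and 32069 in VAS WT. The knockout on the same diet had 28747, 28919, 29599, 28341 and 30065, within the range of VAS WT. The VAD WT libraries had 7157, 13208, 7039, 12468 and 7691, all below VAS WT. Those labelled VAD Stra6-/- reached 159774, 156194, 158080, 155196 and 170017, between 0.891% and 0.935% of all normalized counts together with Rrh. In VAS WT the 2 opsin genes together made 0.165% to 0.197%. The peropsin gene Rrh was 598 to 813 in VAS WT, 259 to 378 in VAD WT, 539 to 673 in VAS Stra6-/- and 3023 to 3431 in the libraries labelled VAD Stra6-/-.

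Rdh10 spread most within VAD WT among the genes of the RPE side. Its values were 1270, 1217, 1440, 1458 and 1289 in VAS WT. They were 235, 1181, 355, 1418 and 302 in VAD WT, so that replicates 2 and 4 were 4.38 times the other replicates by mean. Rdh10 in VAS Stra6-/- was 1733, 1779, 1732, 1747 and 1714, above every VAS WT library. The libraries labelled VAD Stra6-/- had 15803, 15662, 14935, 15516 and 15395. Rdh11, found in many cell types, moved far less, with 330 to 379 in VAS WT, 228 to 335 in VAD WT, 373 to 434 in VAS Stra6-/- and 784 to 969 in the libraries labelled VAD Stra6-/-.

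The photoreceptor dehydrogenases had another pattern. Rdh12 was 1178, 1103, 1134, 1139 and 1268 in VAS WT. VAD WT had 930.2, 1341, 918, 1252 and 909.9, on both sides of VAS WT. VAS Stra6-/- had 877, 945, 838, 808 and 888, below every VAS WT library. In the libraries labelled VAD Stra6-/- Rdh12 had its lowest values, 538, 531, 523, 497 and 569. Rdh8 was low throughout. Its values in VAS WT were 51.0, 78.8, 76.8, 24.4 and 71.4. In VAD WT they were 0, 206, 19.9, 253 and 2.60, and the 0 of replicate 1 allows up to 3 reads by counting error alone. For VAS Stra6-/- Rdh8 was 98.5, 81.2, 72.2, 71.8 and 53.4, and in the libraries labelled VAD Stra6-/- it was 55.4, 66.7, 68.6, 108 and 76.1. Outside VAD WT the groups of Rdh8 overlapped, and within VAD WT its mean in replicates 2 and 4 was 30.7 times that in replicates 1, 3 and 5.

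**Figure D2:**
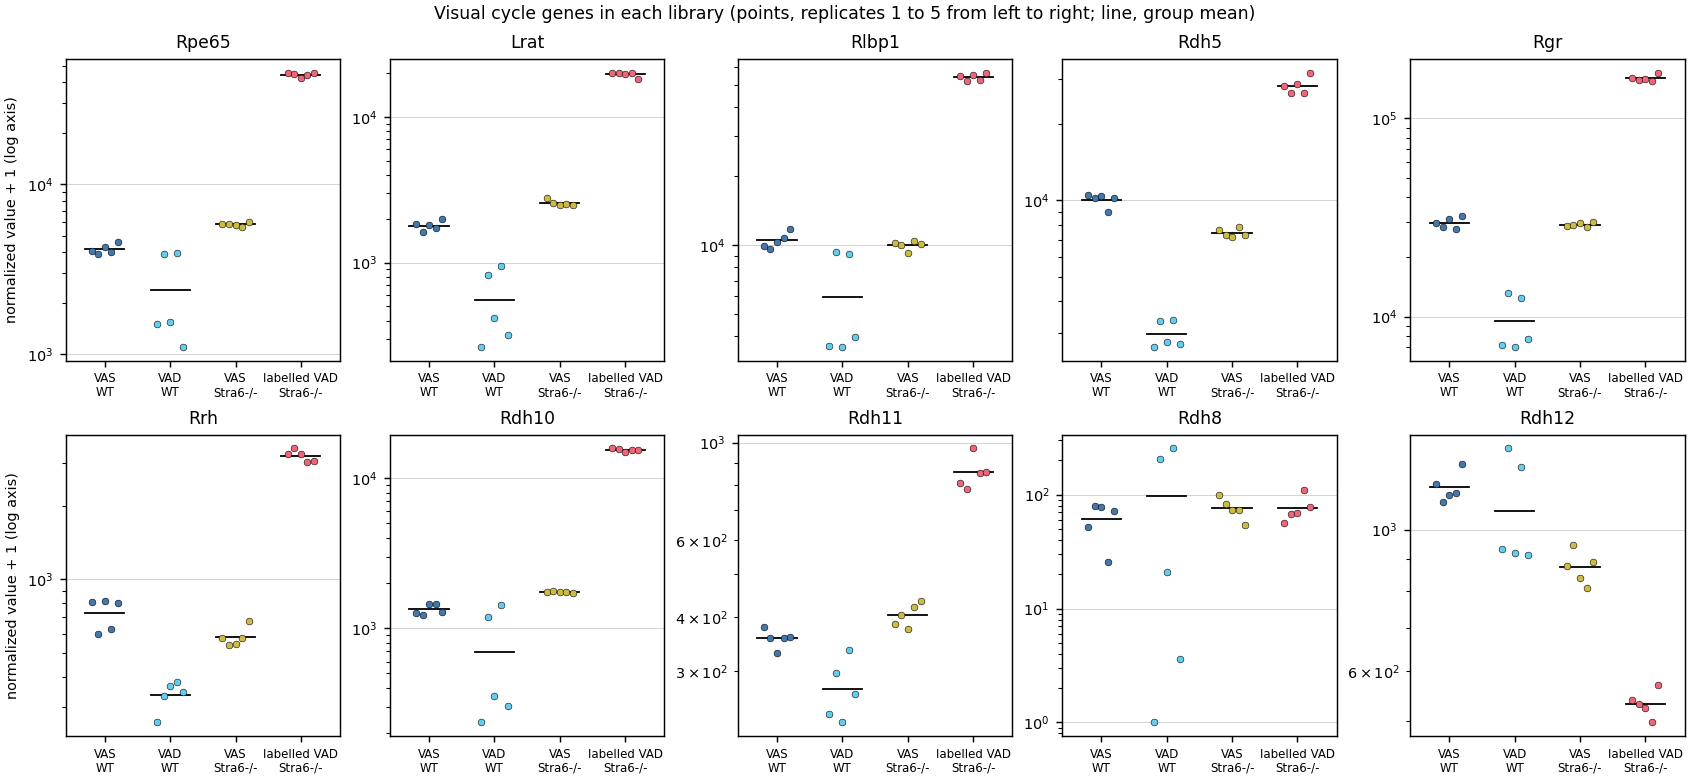
Normalized value plus 1 (log axis) of the 10 visual cycle genes in each of the 20 libraries, with replicates 1 to 5 of each group from left to right and the group mean as a line. Rpe65, Lrat, Rlbp1, Rdh5, Rgr, Rrh, Rdh10 and Rdh11 are highest in the libraries labelled VAD Stra6-/-, Rdh12 is lowest there, and Rdh8 has no library of that group outside 55.4 to 108.

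Genotype on the VAS diet was compared first. Sex-linked transcripts separate the same 2 groups, Ddx3y being at 981 to 1193 in VAS WT and at 0 to 1.02 in VAS Stra6-/-, so that genotype and sex cannot be told apart here. Between VAS Stra6-/- and VAS WT 3 of the 10 genes were called, all lower, while 10.8% of all genes tested were called lower and 15.9% higher. Rdh5 differed by -0.43 (SE 0.08, adjusted p = 0.00045, limma), Rdh12 by -0.42 (0.10, adjusted p = 0.0027, limma) and Rrh by -0.32 (0.11, adjusted p = 0.031, limma). Lrat stood 0.52 higher (SE 0.24, adjusted p = 0.11, limma), Rpe65 0.48 (0.24, adjusted p = 0.16) and Rdh10 0.39 (0.34, adjusted p = 0.44), which were not called although no library of one group reached the other. Of all genes, 19.3% had such a gap with VAS Stra6-/- higher and 13.2% with it lower. Rlbp1 (-0.07), Rgr (-0.03), Rdh11 (0.18) and Rdh8 (0.40) were not called. The median log2 fold change of the 10 genes was 0.07 against 0.02 over all genes tested. Without VAD WT replicates 2 and 4 the SE of Rpe65 was 0.07, and Lrat, Rpe65 and Rdh10 were called higher, with adjusted p of 3.2e-05, 5.9e-06 and 0.00029 (limma), and 40.0% of all genes were called. Handling stress genes summed to 87798 to 93078 in VAS Stra6-/- and 23413 to 25225 in VAS WT, and their part in these differences was not tested. The Rrh call was lost in 7 of the 10 fits that left out 1 library of the 2 groups (VAS WT replicate 1, 3 or 5 or VAS Stra6-/- replicate 1, 2, 3 or 4), with adjusted p up to 0.085.

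The VAD diet in WT mice was compared next, and the visual cycle genes of the RPE were lower as a group. In VAD WT against VAS WT 8 of the 10 genes were lower, while 5.5% of all genes tested were called lower and 3.29% higher. The 6 RPE genes all fell, by log2 fold changes of -1.88 for Lrat (SE 0.24, adjusted p = 1.4e-05), -1.77 for Rdh5 (0.08, adjusted p = 1.2e-11), -1.70 for Rgr (0.15, adjusted p = 1.4e-07), -1.11 for Rrh (0.11, adjusted p = 4.1e-07), -1.0 for Rpe65 (0.24, adjusted p = 0.011) and -0.97 for Rlbp1 (0.21, adjusted p = 0.0049), all by limma. Rdh10 was lower by -1.32 (0.34, adjusted p = 0.015, limma) and Rdh11 by -0.40 (0.10, adjusted p = 0.013, limma). The Rdh10 call was lost with edgeR (adjusted p = 0.11) and DESeq2 (adjusted p = 0.084), and the Rpe65 call with edgeR (adjusted p = 0.056). A limma fit of VAD WT and VAS WT alone called 4 of the 10 genes, and the share of all genes called there was not computed. Of the photoreceptor dehydrogenases, Rdh12 had -0.14 (SE 0.10, adjusted p = 0.44, limma) and Rdh8 had -1.45 (1.02, adjusted p = 0.45), neither called. For 5 of the 10 genes every VAD WT library lay below every VAS WT library, which held for 4.21% of all genes. The median log2 fold change was -1.22 against 0.00 over all genes.

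The 5 VAD WT libraries did not move alike. Replicates 2 and 4 were above replicates 1, 3 and 5 for 9 of the 10 genes, Rrh being the exception. The share of all genes with such a gap was not computed, so the count says nothing particular about these genes. For Lrat, Rdh5, Rgr, Rrh and Rlbp1 replicates 2 and 4 still lay below every VAS WT library, for Rlbp1 narrowly (9167 and 9287 against 9656 or more). For Rpe65, Rdh10 and Rdh11 they reached into the range of VAS WT. Without them all 10 genes were lower, against 37.9% of all genes called in either direction, with Rpe65 at -1.61 and Lrat at -2.45 on the log2 scale, Rdh12 at -0.34 (SE 0.06, adjusted p = 0.00021, limma) and Rdh8 at -3.75 (0.62, adjusted p = 6.6e-05, limma). Leaving out VAD WT replicate 5 alone took the adjusted p of Rdh10 to 0.054. In those 2 replicates the sums of the RPE and rod markers were 2.71 and 2.47 times those of the other 3, and the sum of cornea markers 0.36 times. Within each set the libraries were close, with rod sums of 376076 to 376166 in replicates 2 and 4 and 149248 to 153721 in replicates 1, 3 and 5. Whether the 5 libraries are from 5 independent mice was not tested, while the SEs and adjusted p treat them as independent.

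Both remaining comparisons use the libraries labelled VAD Stra6-/-. Against VAD WT, the design's comparison of genotypes on the VAD diet, 8 genes were higher and Rdh12 was lower, while 26.2% of all genes were called higher and 29.6% lower. Lrat rose by 5.33 (SE 0.24, adjusted p = 5.9e-14, limma), from a mean of 551 ± 309 to 19569 ± 822 (SD, n = 5), or 35.5-fold. By limma Rdh10 rose by 4.86 (SE 0.34, adjusted p = 7.7e-11), Rpe65 by 4.41 (0.24, adjusted p = 1.8e-12) and Rgr by 4.13 (0.15, adjusted p = 2.6e-15). Rlbp1 rose by 3.34 (0.21), Rdh5 by 3.26 (0.08), Rrh by 3.26 (0.11) and Rdh11 by 1.65 (0.10), with adjusted p at or below 1.8e-11. Rdh12 fell by 0.99 on the log2 scale (SE 0.10, adjusted p = 1.9e-08, limma), to 0.497 times its mean in VAD WT. Rdh8 differed by 1.83 (95% interval -0.30 to 3.96, adjusted p = 0.14, limma), while its plain means were 75.0 and 96.4, in the opposite order. It was called higher without VAD WT replicate 2 (2.66, adjusted p = 0.022) or replicate 4 (2.73, adjusted p = 0.016, limma). Beyond a log2 fold change of 2 lay 7 of the 10 genes, all higher, against 3.52% of all genes. Of the genes named here, Rpe65, Lrat, Rlbp1, Rdh5 and Rdh10 are ones the study singled out from these same libraries, so their count is no independent evidence of a direction.

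Against VAS Stra6-/-, the design's comparison of diets within the genotype as labelled, the same genes were called in the same directions, 8 higher and Rdh12 lower. The background was 24.4% of all genes higher and 28.8% lower. Sex-linked transcripts separate these 2 groups too, with Ddx3y at 0 to 1.02 in VAS Stra6-/- and at 741 to 970 in the libraries labelled VAD Stra6-/-. Diet and sex can therefore not be told apart here. The order of sizes differed from the order against VAD WT. Rdh10 led with 3.15 (SE 0.34, adjusted p = 6.6e-08, limma), followed by Rpe65 and Lrat, both at 2.93 (0.24 each, adjusted p = 1.3e-09 and 7.4e-10). Rgr and Rrh both stood at 2.46, Rlbp1 at 2.44, Rdh5 at 1.92 and Rdh11 at 1.08, with SEs of 0.15, 0.11, 0.21, 0.08 and 0.10. In plain means these were 8.88-fold for Rdh10, 7.61-fold for Rpe65, 7.64-fold for Lrat, 3.80-fold for Rdh5 and 2.12-fold for Rdh11. Beyond a log2 difference of 2 lay 6 of the 10 genes, all higher, against 1.67% of all genes. Rdh12 fell by 0.71 (SE 0.10, adjusted p = 2.3e-06, limma). Rdh8 had a log2 fold change of -0.02, with a 95% interval of -2.15 to 2.11. Cornea markers were all lower in these comparisons (13 of 13 in each) and stroma and sclera markers summed to 202121 to 213012 against 38611 to 39963 in VAS Stra6-/-, and the part of either in the values of the visual cycle genes was not tested on this scale.

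**Figure D3:**
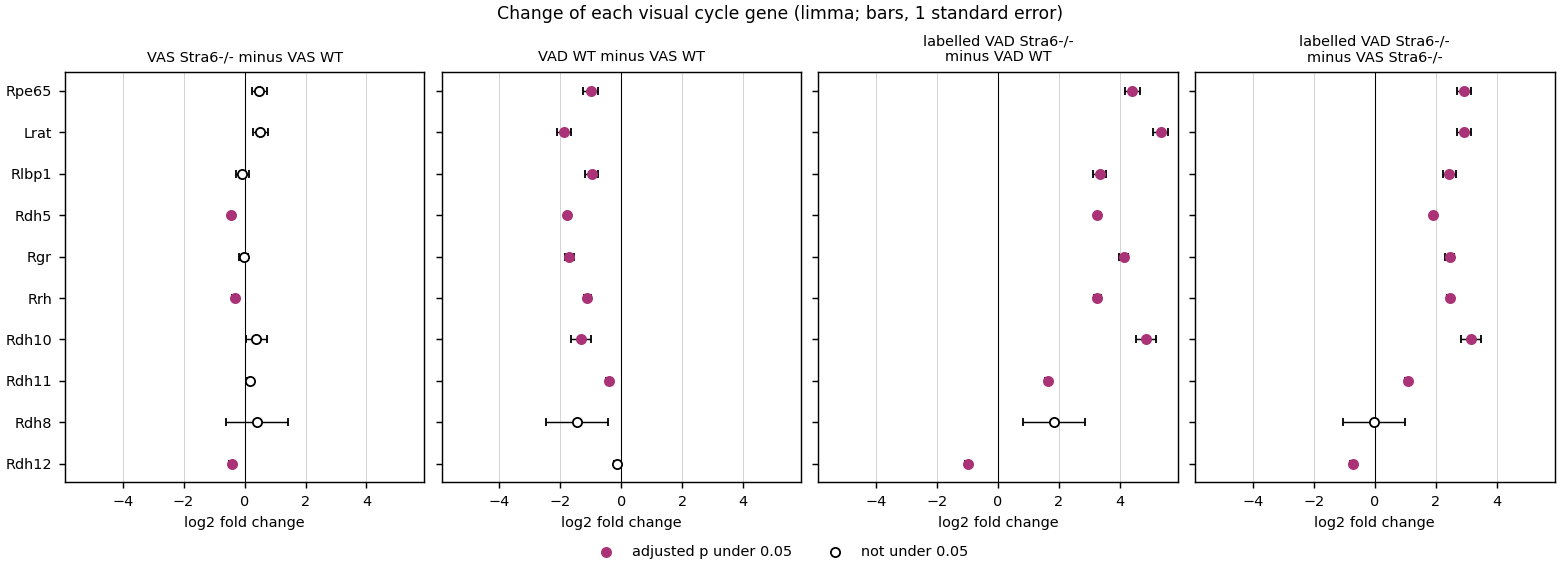
Log2 fold change of each visual cycle gene (x axis, 1 SE as bars) in 4 comparisons, with filled points for an adjusted p under 0.05 (limma). The first panel has 3 filled points, all below 0, the second has 8, all below 0, and the third and the fourth have 8 above 0 and Rdh12 below 0.

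The interaction of genotype and diet as labelled, which uses all 4 groups, was called for 9 genes, 8 higher and Rdh12 lower, against 19.5% of all genes higher and 24.8% lower. It ranged from 4.81 for Lrat (SE 0.33) and 4.47 for Rdh10 (0.48) to 1.48 for Rdh11 (0.14). For Rdh12 it was -0.57 (SE 0.14, adjusted p = 0.0019, limma). The comparisons share groups with one another, so that agreement between them is not independent. Sex-linked transcripts differ between the 4 groups, and the part of sex in the interaction was not tested.

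The 6 RPE genes were higher in the libraries labelled VAD Stra6-/-, and so were 11 of the 12 other RPE markers in each of the 2 comparisons. The remaining one, Best1, had 0.40 against VAD WT and -0.53 against VAS Stra6-/- and was not called. The mean log2 value of the 12 other RPE markers was 2.63 higher there than in VAD WT and 1.92 higher than in VAS Stra6-/-. Each gene was therefore also taken relative to that mean, library by library, and refitted over all genes. On this scale 94.8% of all genes were lower than in VAD WT and 0.548% higher. Of the 10 visual cycle genes 7 were higher, Lrat by 2.70 (SE 0.12), Rdh10 by 2.23 (0.19), Rpe65 by 1.78 (0.12), Rgr by 1.50 (0.17), Rlbp1 by 0.71 (0.13) and Rdh5 and Rrh by 0.63 (0.17 and 0.20), with adjusted p at or below 0.0059 (limma). Rdh11 was lower by -0.98 (0.17, adjusted p = 1.4e-05) and Rdh12 by -3.62 (0.14, adjusted p = 4.8e-15, limma), and Rdh8 was not called (-0.80, SE 0.87).

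Relative to the same RPE markers, the libraries labelled VAD Stra6-/- had 6 genes higher than VAS Stra6-/- and 3 lower, with 0.574% of all genes higher and 91.3% lower. Rdh10 was higher by 1.23 (SE 0.19), Lrat by 1.02 (0.12), Rpe65 by 1.01 (0.12), Rrh by 0.55 (0.20), Rgr by 0.54 (0.17) and Rlbp1 by 0.53 (0.13), with adjusted p at or below 0.015 (limma). Rdh5 was not called on this scale, with a difference of 0.01 and a 95% interval of -0.35 to 0.36. Rdh12 was lower by -2.63, Rdh8 by -1.93 and Rdh11 by -0.84, with adjusted p of 7.9e-13, 0.041 and 0.0001. Lrat, Rdh10, Rpe65, Rgr, Rlbp1 and Rrh were thus higher relative to the mean of the other RPE markers in both comparisons. That mean includes Best1, which was not called and had the lowest log2 fold change of the list. On the plain scale the 12 markers ranged from 0.40 to 5.35 against VAD WT, with a median of 2.83. Against VAS Stra6-/- they ranged from -0.53 to 3.61, with a median of 2.08. The highest marker stood above all 6 genes in each comparison, and the SEs do not cover the spread between markers. For Rdh5 the difference between its 2 values was not tested.

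In VAD WT against VAS WT the RPE markers fell by 0.71 on the log2 scale, and relative to them Lrat (-1.17, SE 0.12), Rdh5 (-1.06, 0.17), Rgr (-0.99, 0.17) and Rdh10 (-0.62, 0.19) were still lower, with adjusted p at or below 0.014 (limma). Only 0.75% of all genes were lower on this scale. Rpe65 (-0.29, adjusted p = 0.055), Rlbp1 (-0.26) and Rrh (-0.40) were not called, and Rdh12 was higher by 0.57 (SE 0.14, adjusted p = 0.0038, limma), as were 53.6% of all genes. Between VAS Stra6-/- and VAS WT the mean of the RPE markers did not move (0.00), and relative to it Lrat (0.52, adjusted p = 0.010) and Rpe65 (0.48, adjusted p = 0.016) were called higher (SE 0.12 each, limma), against 7.12% of all genes. Those 2 calls depended on the reference: with the median of the list neither was called, and relative to 11 pigment cell markers, whose mean was 0.40 higher in VAS Stra6-/-, 5 genes were called, all lower.

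**Figure D4:**
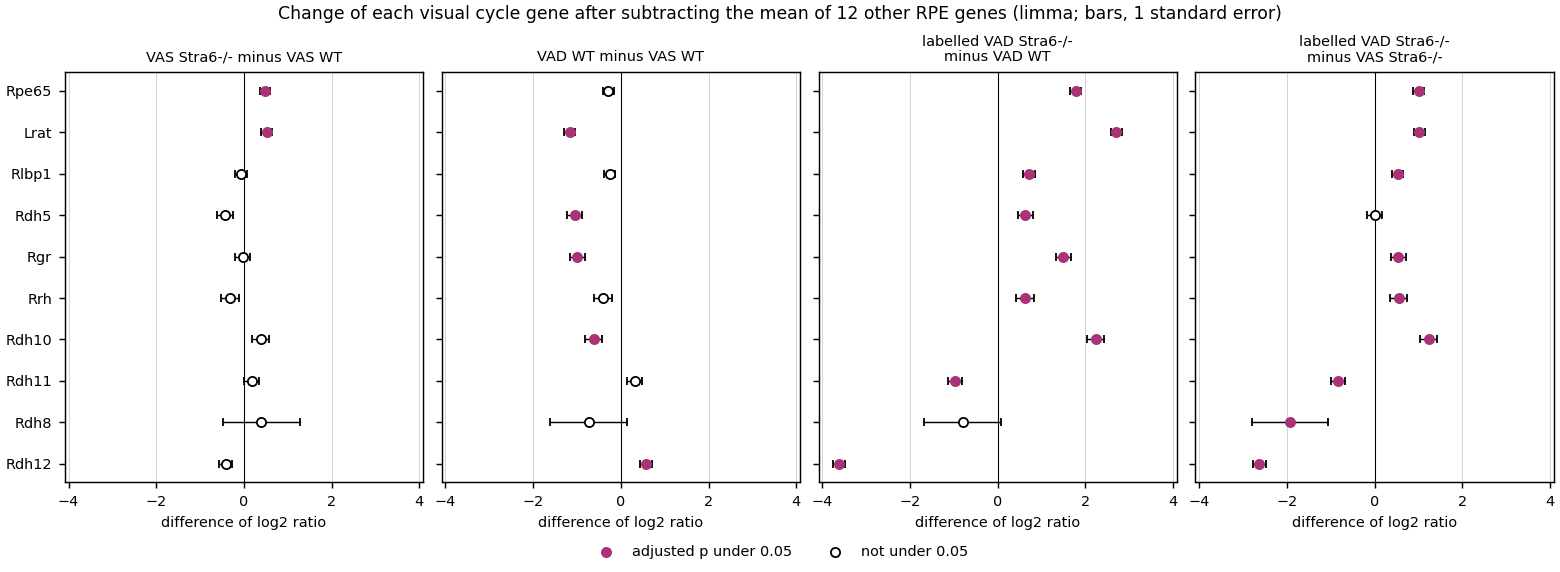
Difference between groups of each gene's log2 value minus the mean log2 value of 12 other RPE markers (x axis, 1 SE as bars), with filled points for an adjusted p under 0.05 (limma). In the third and the fourth panel Lrat, Rdh10 and Rpe65 lie farthest above 0 and Rdh12 farthest below it.

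For the photoreceptor dehydrogenases the same was done with the mean of 18 rod markers, which in the libraries labelled VAD Stra6-/- was 0.87 log2 units below that of VAD WT and 0.64 below that of VAS Stra6-/-. Relative to rods Rdh12 was called in no comparison. Its difference was -0.12 against VAD WT (95% interval -0.43 to 0.19) and -0.07 against VAS Stra6-/- (-0.38 to 0.24), where 58.3% and 51.5% of all genes were called in either direction. In VAS Stra6-/- against VAS WT it was -0.35 (-0.66 to -0.04, adjusted p = 0.16, limma) and in VAD WT against VAS WT -0.30 (-0.61 to 0.01, adjusted p = 0.36), with 10.2% and 4.84% of all genes called. Rdh8 relative to rods was called once, in the libraries labelled VAD Stra6-/-, which exceeded VAD WT by 2.70 (SE 0.87, adjusted p = 0.011, limma). The ranges overlapped even so, at -12.2 to -5.41 in VAD WT and -5.93 to -5.14 in the libraries labelled VAD Stra6-/-. The VAD WT mean includes replicates 1 and 5, which held 0 and 2 reads of Rdh8. The 8 other genes were all higher relative to rods in both comparisons with the libraries labelled VAD Stra6-/-, by 2.52 to 6.20 against VAD WT and by 1.72 to 3.79 against VAS Stra6-/-, as were 50.7% and 41.1% of all genes.

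The contrast between RPE and photoreceptor genes is shown within each library by differences of log2 values, given without a test. They are not corrected for exon length, so they are compared between groups and say nothing of which gene of a pair is the more abundant. Rdh5 minus Rdh12 was 3.11 ± 0.11 (SD, n = 5) in VAS WT and 3.10 ± 0.12 in VAS Stra6-/-. In VAD WT the difference was 1.48 ± 0.11, below every library of the VAS groups, with replicates 2 and 4 at 1.32 and 1.43 and replicates 1, 3 and 5 at 1.51, 1.59 and 1.57. In the libraries labelled VAD Stra6-/- it was 5.73 ± 0.06. The difference between Rpe65 and Rdh12 was 1.84 ± 0.05 in VAS WT, 2.74 ± 0.06 in VAS Stra6-/- and 6.38 ± 0.06 in the libraries labelled VAD Stra6-/-. The 5 VAD WT libraries spread from 0.28 to 1.65.

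Pairs within the RPE changed too. Rpe65 minus Rdh5 was -1.27 ± 0.11 in VAS WT, -0.36 ± 0.08 in VAS Stra6-/- and 0.65 ± 0.11 in the libraries labelled VAD Stra6-/-, while VAD WT spread from -1.29 to 0.22. Per kb these genes overlapped in the libraries labelled VAD Stra6-/-. Lrat minus Rpe65 was -1.22 ± 0.05 in VAS WT, -1.19 ± 0.07 in VAS Stra6-/- and -1.18 ± 0.09 in the libraries labelled VAD Stra6-/-, with overlapping ranges. In VAD WT it was -2.10 ± 0.28, below all the others. Rgr minus Rpe65 went from 2.83 ± 0.04 in VAS WT to 2.32 ± 0.03 in VAS Stra6-/- and 1.85 ± 0.05 in the libraries labelled VAD Stra6-/-, and in VAD WT it spread from 1.66 to 2.79.

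**Figure D5:**
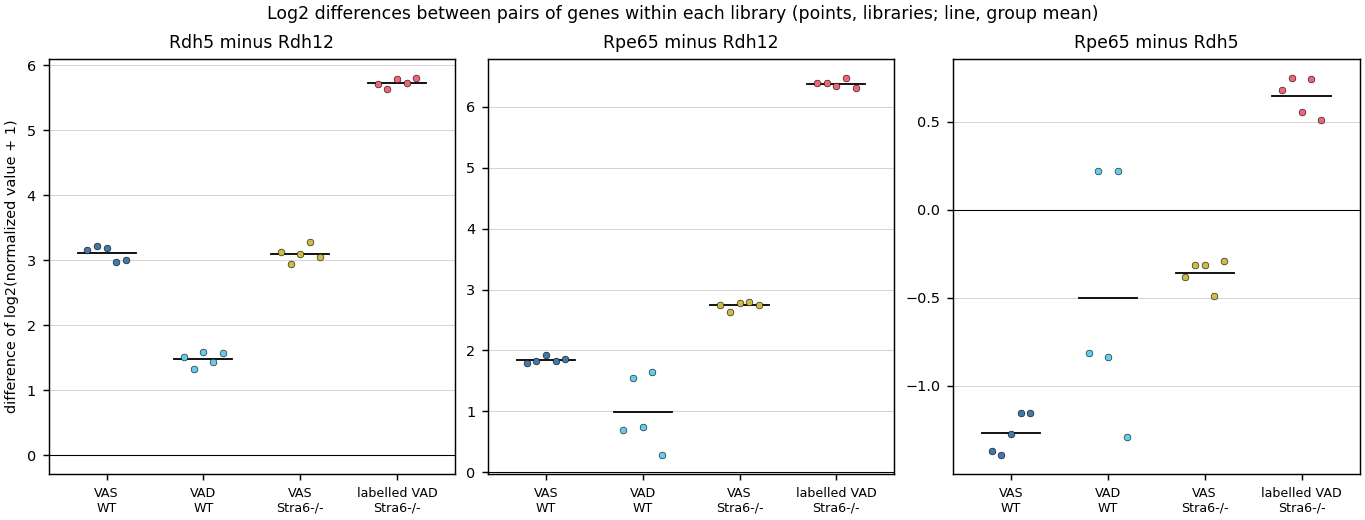
Difference of log2(normalized value + 1) between 2 genes in each library, with the group mean as a line. Rdh5 minus Rdh12 lies between 1.32 and 1.59 in VAD WT, near 3.1 in both VAS groups and between 5.64 and 5.80 in the libraries labelled VAD Stra6-/-, while Rpe65 minus Rdh5 lies above every other library in those labelled VAD Stra6-/-.

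Across the 20 libraries the log2 values of Rpe65, Lrat, Rlbp1, Rdh5, Rgr, Rrh and Rdh10 were alike, with Pearson's r from 0.924 to 0.993 over their 21 pairs. Rdh12 had r from -0.816 to -0.710 with those 7 genes and Rdh8 from 0.327 to 0.529. These values share the gap between the libraries labelled VAD Stra6-/- and the rest. After the group means were taken out, r was 0.244 to 0.975 among the 7 genes and 0.268 to 0.925 for Rdh12 with them, so that within groups Rdh12 varied in the same direction as the RPE genes. Those deviations share the split of VAD WT. Among 13510 other genes with a mean value of at least 50, those most like Rpe65 over 20 libraries were Ctss, Slc16a1 (itself one of the other RPE markers), Tbc1d1, Tmem56 and Trpm1 (r of 0.995 to 0.996), and by deviations from group means the leading genes were Tmem56, Cebpd and Itgbl1 (0.986 to 0.990). For Rdh8 they were Spock2, Acer2, Ptprb, Msi1 and Eng (0.903 to 0.914), and by deviations Ldb2, Car6, Ccdc85c, Tmem72 and Six3 (0.949 to 0.966).

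Other genes of retinoid handling followed only in part. Against VAD WT, 10 of 15 listed genes were higher in the libraries labelled VAD Stra6-/-, where 26.2% of all genes were. The median log2 fold change of the 15 was 0.69. Degs1, a desaturase also described as a retinol isomerase of Müller glia, rose by 2.57 (SE 0.10) and the retinol saturase gene Retsat by 1.70 (0.11). Rbp3, the retinoid carrier between photoreceptors and RPE, which rods and cones make, had -0.44 (SE 0.30, adjusted p = 0.22, limma). In VAD WT against VAS WT 7 of the 15 were lower, against 5.5% of all genes. Among the 7 were Retsat (-0.64), Degs1 (-0.47), the lipase gene Lpl (-0.72) and the retinal reductase gene Dhrs3 (-0.32). In VAS Stra6-/- against VAS WT 6 were lower, the deleted gene Stra6 among them, and 1 higher, against 10.8% and 15.9% of all genes. The higher one was Degs1 at 0.32 (SE 0.10, adjusted p = 0.019, limma).

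Of 13 other short-chain dehydrogenase genes, 11 were tested. In the libraries labelled VAD Stra6-/- against VAD WT 5 of them were higher and 4 lower, where 26.2% and 29.6% of all genes were. Rdh14, at 0.80 (SE 0.11), Dhrs7, at 1.04 (0.11), and Dhrs4, at 0.33 (0.11), were higher, and so were Rdh9 and Rdh1, which stayed at or below 111. Rdh13 was lower by -0.53 (SE 0.12, adjusted p = 0.00079, limma). Rdh16 was lower by -4.22 (0.39, adjusted p = 6.3e-09, limma), with 19.7 to 48.1 in VAD WT, 129 to 185 in VAS Stra6-/- and 0 to 2.71 in the libraries labelled VAD Stra6-/-. Rdh7 and Rdh19, also lower, stayed at or below 11.2 in all libraries. The median over the 11 genes was 0.33 log2 units, against 3.30 for the 10 visual cycle genes and -0.05 for all genes tested.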

How the data were processed

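RNA of RPE and choroid was sequenced in 20 libraries. As deposited, the values are a signal that the authors made by aligning reads with STAR 2.5.3a to GRCm38, counting reads per gene with RSEM 1.2.30 and dividing the counts of each library by 1 DESeq2 1.32.0 size factor (tools and versions from the submitters' processing notes). Dividing each value by that of 1 read gave whole reads (within 0.001 reads) for 100% of the values in 19 libraries. In replicate 1 labelled VAD Stra6-/- the value of 1 read was too near 1 for this check, and it stayed out of the count tests. Total reads were 13331903 to 21878614 (median 17785927). The limit given for 0 reads covers counting error only, and intervals of differences rest on the spread between libraries. Replicates are the libraries the labels number within each group.

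Genes with at least 5 reads in all (18807 of 24411) were fitted with limma 3.58.1 in R 4.3.3 on log2(value + 1), 1 mean per group, with moderated variances and Benjamini-Hochberg adjustment over all genes of each comparison. The same fit was made after subtracting, in each library, the mean log2 value of 12 other RPE markers or 18 rod markers. The fits were tested on simulated data. edgeR 4.0.16, with TMM scaling and its quasi-likelihood test on the recovered reads, called 4880 genes in VAS Stra6-/- against VAS WT, 1529 in VAD WT against VAS WT, 9940 and 9455 in the libraries labelled VAD Stra6-/- against VAD WT and VAS Stra6-/-, and 7947 for the interaction. DESeq2 1.42.0 on the recovered reads, the pseudocount, the filter on low values, other scalings, another reference list, a replicate block, single libraries left out and VAD WT replicates 2 and 4 left out together were the alternatives, the last chosen with the split of that group known. All 10 genes of the visual cycle are named, with other genes only from lists of retinoid handling, dehydrogenase and cell type marker genes and up to 5 genes most like Rpe65 and Rdh8. The genes and lists were chosen with earlier results of these data known. Some listed genes have no single values reported here. Positions and exon lengths are from GENCODE vM21, and promoters, for 9 of the 10 genes, from RefSeq.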

Additional observations from a re-analysis of the deposited data

Results flagged for a closer look

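The effect of the VAD diet differed between the genotypes, as labelled, for 9 of the 10 visual cycle genes (limma, interaction of genotype and diet over 4 groups of 5 libraries). The difference, in log2 units, was 4.81 for Lrat (adjusted p = 1.6e-10), 4.47 for Rdh10 (adjusted p = 1.1e-07), 4.16 for Rgr (adjusted p = 1.4e-12), 3.93 for Rpe65 (adjusted p = 6.2e-09), 3.69 for Rdh5 (adjusted p = 9.3e-16), 3.57 for Rrh (adjusted p = 7.9e-14), 3.41 for Rlbp1 (adjusted p = 6.1e-09) and 1.48 for Rdh11 (adjusted p = 1.8e-08). Rdh12, the photoreceptor enzyme, had -0.57 (adjusted p = 0.0019). Each of the 8 positive genes was lower in VAD WT than in VAS WT, and the libraries labelled VAD Stra6-/- had more of it than VAS Stra6-/-, whereas Rdh12 fell in the second of these pairs and was not called in the first. By normalized value Stra6 itself goes against the label of the VAD Stra6-/- libraries. It rose by less over VAD WT than the mean of the other RPE markers, which was 2.63 log2 units higher. The cornea markers, at 0.162% to 0.205% of normalized counts there and 2.74% to 6.55% elsewhere, move with the same contrast. Sex-linked transcripts also differ between the groups, and neither their part nor that of the cornea markers in the interaction was tested.

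In 3 of 40 groups of 5 libraries 1 library lay apart from the others of its group, where chance alone would single out about 1 group in 20. Lrat was 2774 in VAS Stra6-/- replicate 1, above the other libraries at 2481 to 2550. Lrat was 18109 in replicate 5 of the libraries labelled VAD Stra6-/-, below the others at 19838 to 20082. Rdh5 was 8958 in VAS WT replicate 4, below the others at 10216 to 10542.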

How the results depend on the processing

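Of the 50 gene values 38 were called, and none of these 38 changed sign under any alternative run, while 15 of their 1169 values under alternatives lost the call. Rrh in VAS Stra6-/- against VAS WT accounted for 7 of the losses. In VAD WT against VAS WT Rdh10 was not called by edgeR (-0.92, adjusted p = 0.11), by DESeq2 (-0.93, adjusted p = 0.084) or with only the 2 groups in the fit, Rpe65 not by edgeR (-0.79, adjusted p = 0.056), and Rpe65, Rlbp1 and Rdh11 not with only the 2 groups (limma, adjusted p = 0.20, 0.14 and 0.0995). Counts of called genes were within 1.5 times the reported one in 86 of 99 cases other than single left-out libraries. In VAS Stra6-/- against VAS WT (3 reported) the count was 6 without VAD WT replicates 2 and 4, 7 with only the 2 groups and 0 beyond a log2 fold change of 2. In VAD WT against VAS WT (8 reported) it was 4 with only the 2 groups and 0 beyond a log2 fold change of 2. Relative to other RPE markers, VAS Stra6-/- against VAS WT (2 reported) had 0 with the median of the list, 6 without VAD WT replicates 2 and 4 and 5 with pigment cell markers, and VAD WT against VAS WT (5 reported) had 9 without those replicates and 8 with pigment cell markers. Relative to rod markers, VAS Stra6-/- against VAS WT (2 reported) had 1 with the median, 7 without those replicates and 10 with cone markers, whose mean was 1.90 lower in VAS Stra6-/-. The cause of these shifts was not tested. For the alternative fits relative to marker lists and those with only the 2 groups, the share of all genes called was not computed. Those counts therefore say nothing particular about the 10 genes. Only Rdh8, not called, changed sign. By edgeR and DESeq2 it came to 0.70 and 0.68 for VAD WT against VAS WT, -0.32 and -0.28 in labelled VAD Stra6-/- against VAD WT, 0.0847 and 0.0879 in labelled VAD Stra6-/- against VAS Stra6-/-, and -0.62 and -0.59 for the interaction. With 1 library left out, its value in labelled VAD Stra6-/- against VAS Stra6-/- ranged from -0.156 to 0.0849. With 1 library left out the counts on the plain scale were 2 to 4, 7 to 8, 9 to 10, 9 and 9 for the 4 comparisons and the interaction. Another scaling moved the median of all genes by more than 0.1 from 0 only where cornea, stroma, muscle and erythrocyte lists were left out of the total (-0.13 in labelled VAD Stra6-/- against VAD WT).

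The replicate number as a block left every call of the 10 genes as it was on the plain scale, with counts of 3, 8, 9, 9 and 9. Same-numbered libraries of different groups had correlations of deviations from -0.0686 to 0.0654 over 30 pairs, 0 of them above 0.1, and 5 of 20 libraries correlated best with their own number, so the libraries share only a number. Rdh8, at 0 to 253 normalized reads per library, is the gene whose depth limits what can be said.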
